A study of Homo sapiens with 6 samples.

Results

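The sestrins and the genes that hold back the kinase complex mTORC1 were described here as a group of 9: SESN1, SESN2 and SESN3, the GATOR1 subunits DEPDC5, NPRL2 and NPRL3, the TSC subunits TSC1 and TSC2, and DDIT4. They were chosen by name, with earlier results of these data known. All 9 had a row in the deposited table of 13696 distinct genes, and all 9 were among the 13616 genes tested, which averaged 1 CPM or more. CPM is a read count scaled to the library total. The libraries were 3 of untreated hTERT RPE-1 cells and 3 of the same cells given 25 nM camptothecin for 1 h and then 24 h without drug. hTERT RPE-1 is a human retinal pigment epithelial line immortalised with telomerase, and it was grown with serum in both groups. Camptothecin is an inhibitor that traps topoisomerase 1 on DNA. Whether the replicates were separate cultures is not in the labels. The p-values therefore reflect the spread among these 6 libraries alone, which may be technical.

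mTORC1 drives protein and lipid synthesis when amino acids and growth factors are at hand. Amino acids act through the Rag GTPases on the lysosome, which GATOR1 switches off and GATOR2 shields from GATOR1, and sestrins bind GATOR2 and relieve that shield. Growth factors act through AKT on the TSC complex, which switches off the GTPase RHEB, and DDIT4 (REDD1) helps to keep the TSC complex active under hypoxia and other stress. SESN1 and SESN2 are textbook targets of p53, SESN2 and DDIT4 are also induced by ATF4, and SESN3 by FOXO factors. Camptothecin lesions activate p53, and as its targets SESN1 and SESN2 could link DNA damage to growth control. mTORC1 activity was not measured in these libraries.

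The libraries had effective totals of 26336941 to 31780391 reads, at which 3 counts are worth 0.0944 to 0.114 CPM (counting error alone). Both replicate 1 libraries differed from the remaining 4. They lay at -20.6 and -18.0 on the first principal component, which held 59.4% of the variance, and the others lay between 6.94 and 16.4. Results are therefore also given in replicates 2 and 3 alone and within each same-numbered pair, where a single library per group allows no test. Of 10 pigment epithelium markers, BEST1, MITF, OTX2, KRT8 and KRT18 were measured, and their summed level was 1371 to 1507 CPM in untreated and 1363 to 1407 CPM in pre-dose libraries. Of these, KRT18 fell by 0.15 on the log2 scale in replicates 2 and 3 (limma adjusted p = 0.0198). KRT8 alone had 869 to 979 CPM and KRT18 413 to 461 CPM over the 6 libraries, so these keratins made up most of the sum. RPE65, RLBP1, PMEL, TYR and TTR had no row under these symbols in the deposited table. Of 10 markers of blood, neuronal, endothelial and keratinocyte cells, SNAP25 and SYT1 were measured, at a summed 20.3 to 26.9 CPM in untreated and 23.9 to 31.4 CPM in pre-dose libraries. The part of these markers in the results was not tested.

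SESN1 and SESN2 stood higher after the pre-dose in all 3 pairs, and SESN3 did not share that direction. Over the 6 libraries the differences were 1.43-fold for SESN1 and 1.35-fold for SESN2 in CPM + 1, which understates the fold in CPM. Neither difference passed the test over all genes in the 6 libraries. Both passed as higher in replicates 2 and 3, and SESN2 also in the authors' deposited table. The 250 bases upstream of the RefSeq start of each sestrin (GRCh38.p14) are shown because SESN1 and SESN2 moved in the same direction in every pair and SESN3 did not. Capitals mark the GC box, GGGCGG on either strand, which is the binding motif of SP1-type factors.
SESN1 (chr6:109094847-109095096, minus strand): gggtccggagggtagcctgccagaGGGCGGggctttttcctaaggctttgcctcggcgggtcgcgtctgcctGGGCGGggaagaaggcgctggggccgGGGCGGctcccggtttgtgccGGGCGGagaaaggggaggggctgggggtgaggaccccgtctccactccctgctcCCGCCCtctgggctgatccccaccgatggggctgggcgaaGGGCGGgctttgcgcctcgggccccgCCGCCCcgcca
SESN2 (chr1:28259268-28259517, plus strand): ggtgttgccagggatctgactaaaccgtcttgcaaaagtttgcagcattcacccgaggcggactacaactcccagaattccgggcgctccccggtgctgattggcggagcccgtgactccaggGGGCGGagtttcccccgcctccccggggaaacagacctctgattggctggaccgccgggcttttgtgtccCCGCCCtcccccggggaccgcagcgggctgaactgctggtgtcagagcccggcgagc
SESN3 (chr11:95232476-95232725, minus strand): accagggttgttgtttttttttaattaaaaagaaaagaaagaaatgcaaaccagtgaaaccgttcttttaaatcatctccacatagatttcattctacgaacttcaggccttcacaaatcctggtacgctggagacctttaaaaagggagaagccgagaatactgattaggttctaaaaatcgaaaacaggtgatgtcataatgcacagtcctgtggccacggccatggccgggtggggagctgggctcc
The SESN1 window held 7 GC boxes and 74.4% G and C, the SESN2 window 2 boxes and 65.6%, and the SESN3 window 0 boxes and 42.8%. Of 35116 RefSeq windows of 250 bases, 42.6% held at least 1 GC box, 24.3% at least 2 and 1.12% at least 7, and the median share of G and C was 58%. A single unit of the p53 response element, of which a full element holds a pair (searched on both strands in windows of 300 bases, from 250 before to 50 after the start) matched in none of the 3 sestrin windows and in 6.63% of all windows. The C/EBP-ATF response element TGATGCAA, read by ATF4, matched in none of the 3 and in 0.866% of all. The windows of 300 bases held 8, 2 and 0 GC boxes for SESN1, SESN2 and SESN3. DEPDC5 had 4, TSC1 had 2, NPRL2 and TSC2 had 1 each, and NPRL3 and DDIT4 had 0. The p53 unit matched in NPRL2 and TGATGCAA in TSC2. Whether these counts go with the differences in expression was not tested. A match is a description of letters, other transcript starts of these genes were not searched, and nothing about a factor follows from an absent match.

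SESN1, which lies on chromosome 6 from 108986437 to 109094819 (hg38, GENCODE release 29), had 7.11, 12.6 and 10.7 CPM in untreated replicates 1, 2 and 3 and 9.99, 19.0 and 16.1 CPM in the pre-dose libraries. Replicate 1 was lowest in both groups, and its pre-dose library lay below untreated replicates 2 and 3, so the groups overlapped. Within pairs the differences were 0.44, 0.56 and 0.55 on the log2(CPM + 1) scale, a mean of 0.52 ± 0.067 (SD, n = 3). Across the 6 libraries the group means were 10.1 ± 2.78 and 15.0 ± 4.6 CPM (SD, n = 3 each), and the difference of 0.52 had a 95% interval of -0.10 to 1.13 and an adjusted p of 1.00 in limma. In replicates 2 and 3 SESN1 rose by 0.55 (95% interval 0.34 to 0.77, limma adjusted p = 0.00822). The authors' deposited table gave 0.56 (deposited limits 0.26 to 0.86) with an adjusted p of 0.0564, just short of the threshold of 0.05.

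SESN2, a sestrin that binds leucine, lies on chromosome 1 from 28259527 to 28282491. It had 11.1, 11.7 and 12.5 CPM in untreated replicates 1, 2 and 3 and 11.8, 20.3 and 17.6 CPM in the pre-dose libraries. The untreated libraries lay close together, pre-dose replicates 2 and 3 lay well above them, and pre-dose replicate 1 lay inside their range. The pair differences were 0.085, 0.74 and 0.47 on the log2 scale, so the replicate 1 pair moved little where it had moved by 0.44 for SESN1. The group means were 11.8 ± 0.696 and 16.6 ± 4.34 CPM (SD, n = 3 each), and the difference over the 6 libraries was 0.43 (95% interval 0.012 to 0.85, limma adjusted p = 1.00). In replicates 2 and 3 SESN2 rose by 0.61 (0.42 to 0.79, limma adjusted p = 0.00254). It also passed in the authors' deposited table, at 0.55 (0.33 to 0.77) with an adjusted p of 0.0331, and in voom with library quality weights, at 0.58 with an adjusted p of 0.0447.

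SESN3, on chromosome 11 from 95165513 to 95232541, was the least abundant member. It had 1.24, 1.99 and 2.39 CPM in untreated replicates 1, 2 and 3 and 1.56, 2.04 and 1.72 CPM in the pre-dose libraries. All pre-dose values lay within the untreated range. The pair differences were 0.19, 0.022 and -0.32, with no shared direction. The difference over the 6 libraries was -0.035 with a 95% interval of -0.43 to 0.36, and the authors' deposited table gave -0.31 (-0.67 to 0.055, adjusted p = 0.283). A pseudocount of 1 CPM is close to the level of this gene and shrinks differences between its libraries. The difference over the 6 libraries hardly depended on it, at -0.038 (95% interval -0.68 to 0.60) with no further pseudocount. It was -0.26 in voom with library quality weights and -0.15 in limma on replicates 2 and 3 (adjusted p = 0.435 and 0.630).

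The sestrins were set against each other within each library, as differences of log2(CPM + 1), which compares changes and not levels. SESN1 over SESN3 stood at 1.94 ± 0.21 in untreated and 2.49 ± 0.34 in pre-dose libraries (SD, n = 3 each). The shift of 0.55 had a two-sided exact permutation p of 0.2 (0.3 after Benjamini-Hochberg adjustment over 3 ratios), where 3 libraries against 3 allow no p below 0.1. SESN2 over SESN3 shifted by 0.47, with the same exact p of 0.2 and adjusted value of 0.3. SESN1 over SESN2 shifted by 0.083, with an exact permutation p of 0.8. Untreated replicate 2 lay above pre-dose replicate 1 for SESN1 over SESN3, and untreated replicate 1 did for SESN2 over SESN3. The permutation ignores the replicate numbers. Within pairs, SESN1 over SESN3 shifted by 0.25, 0.53 and 0.87, and SESN2 over SESN3 by -0.11, 0.72 and 0.79. A difference in response between SESN3 and the other sestrins was not established by this test.

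**Figure D1:**
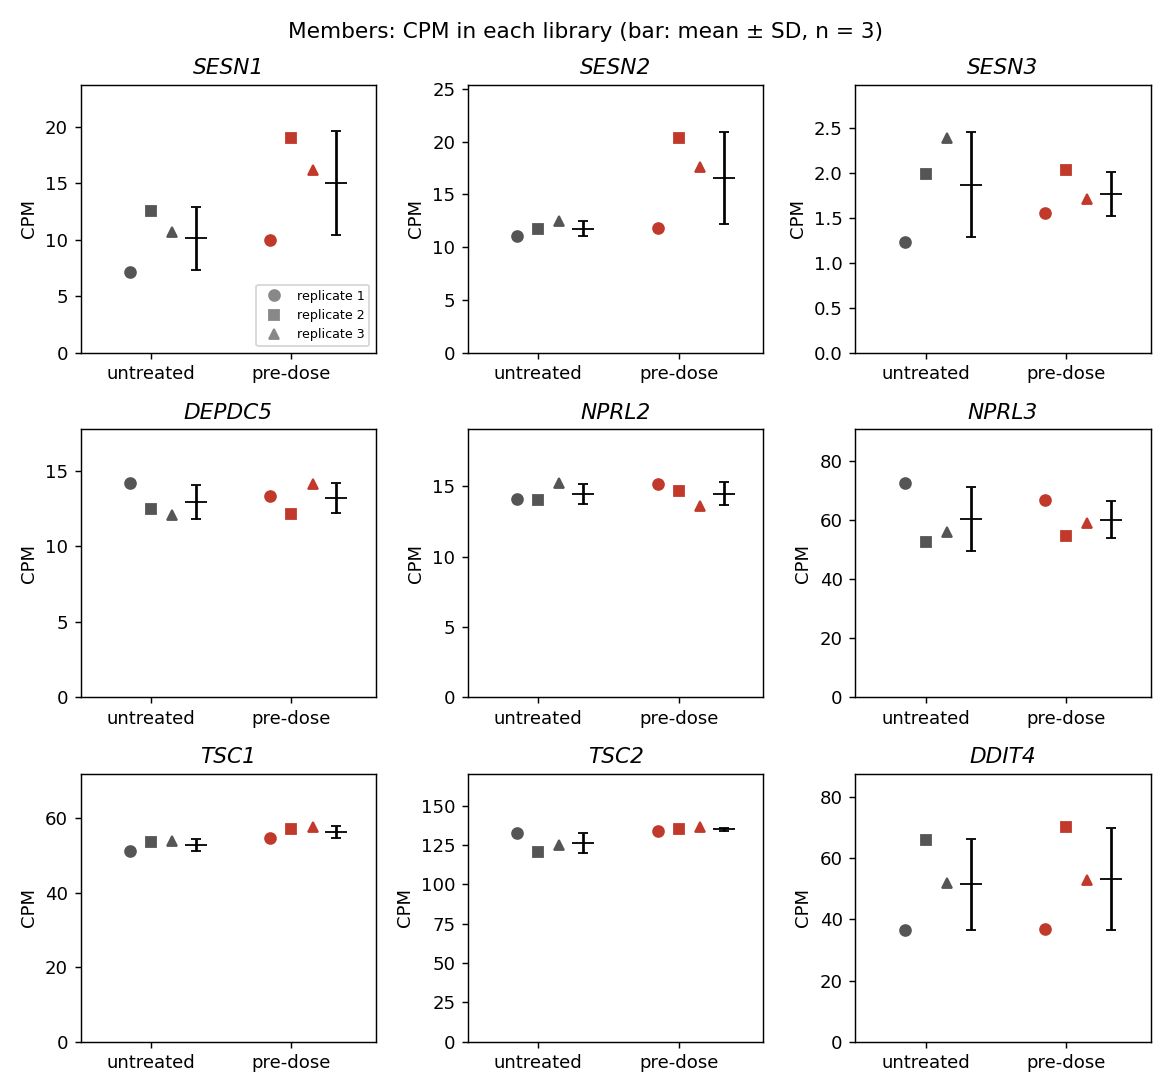
CPM of each of the 9 genes (vertical axis, from 0) in the 3 untreated and 3 pre-dose libraries; marker shape gives the replicate number and the black bar the mean ± SD, n = 3. Pre-dose replicates 2 and 3 of SESN1 and SESN2 lie above every untreated library, and the replicate 1 libraries are the lowest of SESN1 and DDIT4 and the highest of NPRL3 in each group.

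None of the 3 GATOR1 subunit transcripts passed in limma over the 6 libraries, in replicates 2 and 3 or in the authors' deposited table. DEPDC5, the subunit that docks the complex on the Rag GTPases, lies on chromosome 22 from 31753867 to 31908033. It had 14.2, 12.5 and 12.1 CPM in untreated replicates 1, 2 and 3 and 13.4, 12.2 and 14.1 CPM in pre-dose libraries. Its difference was 0.030 (95% interval -0.19 to 0.25), and the pairs gave -0.082, -0.035 and 0.21. The groups covered nearly the same range. DEPDC5 shares 1809 exon bases, 10.4% of its merged exons, with the protein-coding gene Z82190.2 on the same strand, which was not analysed here.

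NPRL2, on chromosome 3 from 50347330 to 50351091, carries the catalytic residue with which GATOR1 inactivates RagA. It had 14.1, 14.0 and 15.2 CPM in untreated replicates 1, 2 and 3 and 15.2, 14.7 and 13.6 CPM in pre-dose libraries. The means were 14.4 ± 0.690 and 14.5 ± 0.810 CPM (SD, n = 3 each), and the 95% interval of the difference was -0.18 to 0.18. Its exons share 397 bases, or 10.8% of its merged exons, with CYB561D2 on the opposite strand, and because no strand setting is given, reads from the shared stretch cannot be assigned with certainty.

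NPRL3, the partner of NPRL2, lies on chromosome 16 from 84271 to 138860. It had 72.6, 52.5 and 55.9 CPM in untreated replicates 1, 2 and 3 and 66.9, 54.7 and 59.0 CPM in pre-dose libraries. Replicate 1 was highest in both groups, and the mean of its 2 libraries was above that of the other 4 by 0.32 on the log2 scale. The pairs differed by -0.12, 0.058 and 0.076, all less than that offset. The difference over the 6 libraries was 0.0062, with a 95% interval of -0.30 to 0.32. NPRL3 shares 453 exon bases, 6.85% of its merged exons, with MPG on the opposite strand. For the 3 GATOR1 subunits the limma adjusted p was 1.00, and the authors' deposited table gave adjusted p values of 0.227, 0.392 and 0.487 for DEPDC5, NPRL2 and NPRL3. The differences in that table were 0.16 for DEPDC5 (deposited limits -0.0050 to 0.32), -0.094 for NPRL2 and 0.078 for NPRL3.

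TSC1 and TSC2, whose products form the complex that switches off RHEB, were the members whose groups did not overlap, with small differences. TSC1, on chromosome 9 from 132891348 to 132946874, encodes hamartin, which stabilises the complex. It had 51.0, 53.7 and 53.9 CPM in untreated replicates 1, 2 and 3 and 54.5, 57.1 and 57.5 CPM in pre-dose libraries. Every pre-dose library lay above every untreated one. The pair differences were 0.094, 0.088 and 0.091, the most even of the 9 genes (mean 0.091 ± 0.0029, SD, n = 3). The difference of 0.091, 1.07-fold, had a 95% interval of -0.045 to 0.23 and did not pass in limma over the 6 libraries (adjusted p = 1.00), in replicates 2 and 3 (0.263) or in the authors' deposited table (0.161).

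TSC2, on chromosome 16 from 2047465 to 2089487, encodes tuberin, the subunit that acts on RHEB. It had 133, 120 and 125 CPM in untreated replicates 1, 2 and 3 and 134, 135 and 136 CPM in pre-dose libraries. The groups were separated by less than 1 CPM at untreated replicate 1, and the pair differences were 0.0097, 0.16 and 0.12. The means were 126 ± 6.41 and 135 ± 1.16 CPM (SD, n = 3 each), and the difference of 0.099 had a 95% interval of -0.036 to 0.23 (limma adjusted p = 1.00). In replicates 2 and 3 TSC2 rose by 0.14 (0.062 to 0.23, limma adjusted p = 0.0443), and the authors' deposited table gave 0.14 with an adjusted p of 0.0679. TSC2 shares 402 exon bases with NTHL1 and 778 with PKD1, both on the opposite strand and both measured, at means of 18.1 and 181 CPM over the 6 libraries.

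DDIT4, the stress-induced brake on chromosome 10 from 72273920 to 72276036, varied more between replicates than between groups. It had 36.5, 66.1 and 51.9 CPM in untreated replicates 1, 2 and 3 and 36.8, 70.1 and 52.9 CPM in pre-dose libraries. The pre-dose libraries had the same order of replicates as the untreated ones. Within pairs the differences were 0.012, 0.084 and 0.027, while the replicate 1 libraries lay below the others by a difference of -0.69 on the log2 scale. SESN1 had nearly the same offset in replicate 1, also -0.69, and SESN2 and SESN3 had offsets of -0.38 and -0.34. The difference of DDIT4 over the 6 libraries was 0.041, with a 95% interval of -0.60 to 0.68, and with the replicate number as a block the interval was -0.056 to 0.14. The authors' deposited table gave -0.014 with an adjusted p of 0.966. The antisense gene DDIT4-AS1 covers 847 bases, 41.2% of the merged exons of DDIT4, and was not analysed here.

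**Figure D2:**
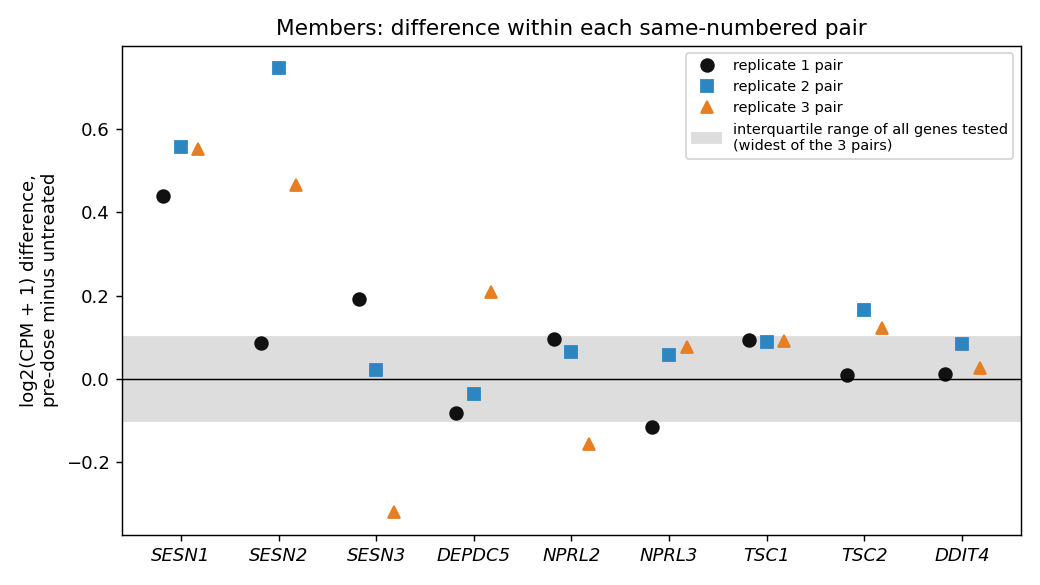
Difference in log2(CPM + 1), pre-dose minus untreated, within the replicate 1, 2 and 3 pairs (vertical axis) for each of the 9 genes; the grey band is the interquartile range of all genes tested, at its widest over the 3 pairs. SESN1 is above the band in all 3 pairs and SESN2 in the replicate 2 and 3 pairs, while TSC1 lies inside it at 0.088 to 0.094. The upper quartiles of the single pairs were 0.072, 0.10 and 0.088. Against these, TSC1 was above in the replicate 1 and 3 pairs and below in the replicate 2 pair. SESN2 was above in the replicate 1 pair as well, at 0.085.

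Counted as a group, 0 of 9 genes passed in limma-trend over the 6 libraries, against 0% of all 13616 genes, and 1 of 9, SESN2, had an unadjusted p under 0.05, against 2.06% of all genes. Voom with trimmed-mean scaling also called 0 of the 9. Of the 9 genes, 1 passed in the authors' deposited table, SESN2, against 3.05% of all genes. In replicates 2 and 3, 3 of 9 passed, SESN1, SESN2 and TSC2, all higher, against 6.36% of all genes in either direction and 2.89% higher. With library quality weights 1 of 9 passed, SESN2, against 0.793% of all genes. The groups did not overlap for 2 of 9, TSC1 and TSC2, both higher, against 6.55% of all genes in either direction and 3.36% higher. The pre-dose library was the higher one in all 3 pairs for 5 of 9 genes, SESN1, SESN2, TSC1, TSC2 and DDIT4, against 15.6% of all genes. For 0 of 9 it was the lower one in all 3 pairs, against 16.3%. The place of DDIT4 in that count rests on pairing by number. Its pre-dose replicate 3 (52.9 CPM) lay below untreated replicate 2 (66.1 CPM). The median difference of the 9 was 0.041 and that of all genes tested was -0.0013. These fits use the same libraries, so their counts are not independent of each other.

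**Figure D3:**
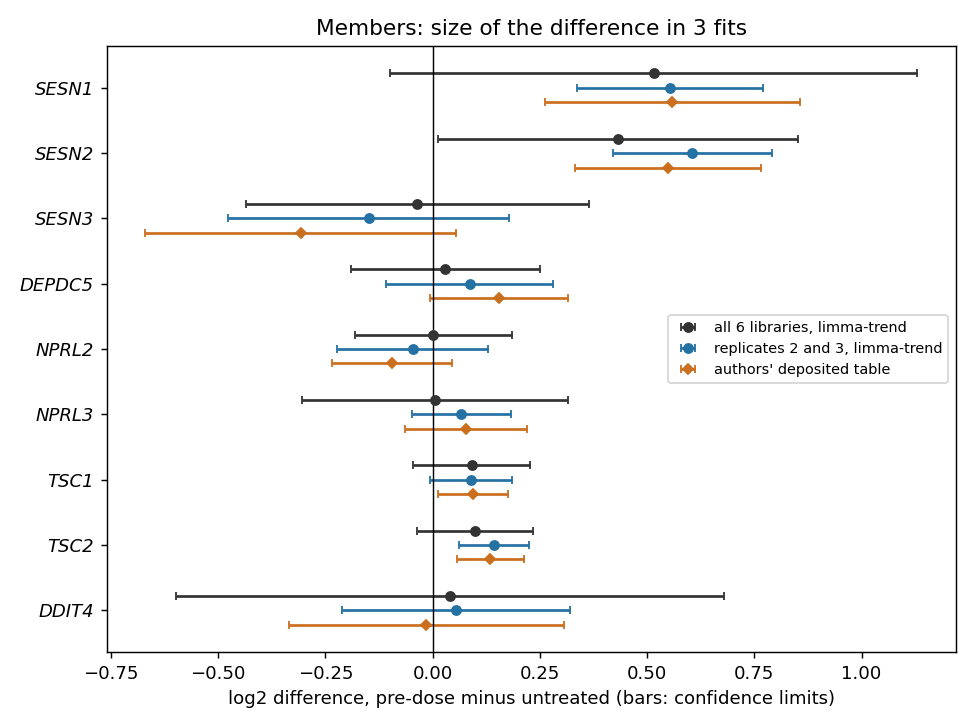
Log2 difference, pre-dose minus untreated (horizontal axis), with confidence limits for each of the 9 genes in limma-trend on all 6 libraries, in limma-trend on replicates 2 and 3 (both 95%), and in the authors' deposited table (as deposited). The intervals of SESN1 and SESN2 exclude 0 in replicates 2 and 3 and in the authors' table, and those of SESN3, DEPDC5, NPRL2, NPRL3 and DDIT4 include 0 in all 3.

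Levels were compared between genes per length, as CPM per kilobase of the longest coding transcript in GENCODE, averaged over the 6 libraries. DDIT4 was highest at 30.0, followed by TSC2 at 20.6 and NPRL3 at 18.8, and the ranges of these neighbours over libraries overlapped. NPRL2 followed at 8.50 and TSC1 at 6.27, each separated from the gene above it. SESN2 at 4.10, SESN1 at 3.59 and DEPDC5 at 2.02 overlapped with their neighbours in the order, SESN2 with TSC1 as well. SESN3 was lowest at 0.191 CPM per kilobase, with a range that did not reach that of DEPDC5. Within GATOR1, which holds its subunits in a single complex, NPRL3 thus had 18.8 and DEPDC5 2.02 CPM per kilobase. The transcript that each cell uses was not measured, so the lengths are an approximation.

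Genes that control sestrin and DDIT4 transcription were read beside them. MDM2, the p53 target that limits p53, had 50.0, 58.1 and 55.0 CPM in untreated replicates 1, 2 and 3 and 57.5, 96.0 and 83.1 CPM in pre-dose libraries, with the smallest step in the replicate 1 pair, as in SESN2. CDKN1A, which encodes the cell cycle inhibitor p21, had 162, 229 and 233 CPM in untreated and 217, 573 and 472 CPM in pre-dose libraries. The pair differences of CDKN1A were 0.42, 1.32 and 1.02 and those of MDM2 were 0.20, 0.71 and 0.59. ATF4, the amino acid stress factor that can induce SESN2, was lower in all 3 pairs, with 197, 190 and 192 CPM in untreated and 186, 164 and 170 CPM in pre-dose libraries. In replicates 2 and 3 MDM2 rose by 0.65 (limma adjusted p = 4.09e-04), CDKN1A rose by 1.17 (adjusted p = 2.27e-05) and ATF4 fell by 0.20 (adjusted p = 0.00927). All 3 also passed in the same direction in the authors' deposited table, with adjusted p values of 0.0254, 0.0254 and 0.0373. In limma over the 6 libraries their adjusted p was 1.00.

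**Figure D4:**
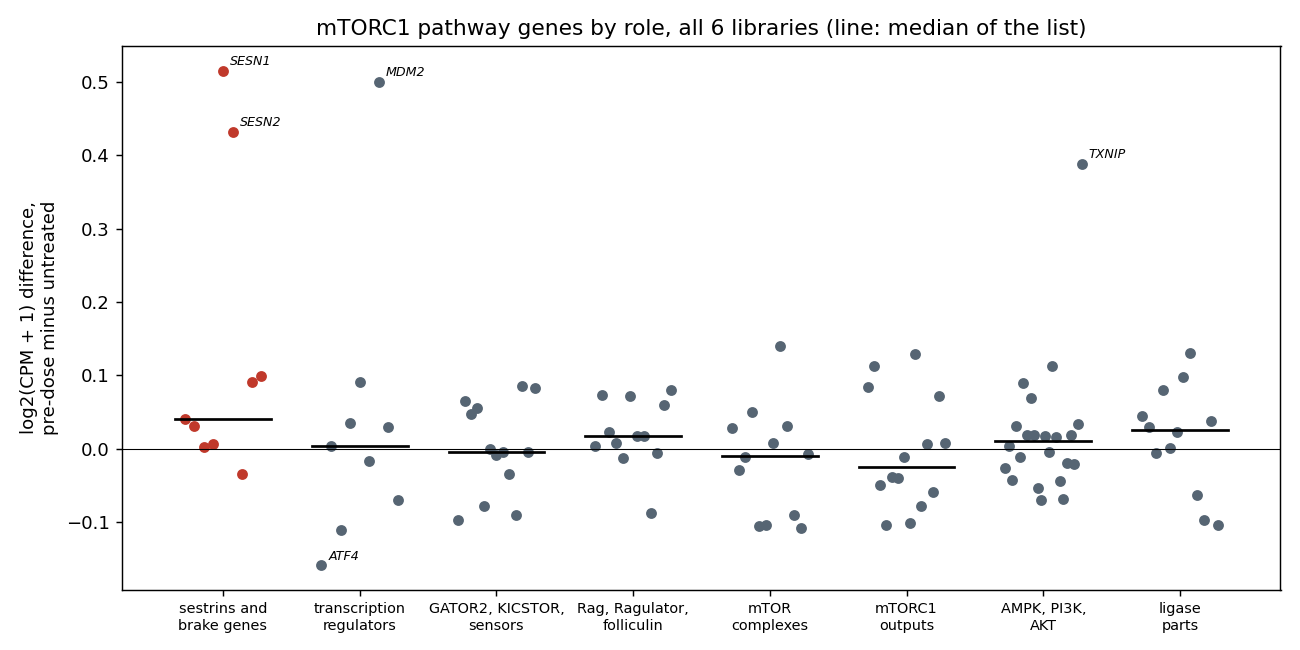
Log2(CPM + 1) difference over the 6 libraries, pre-dose minus untreated (vertical axis), of the 9 genes and of 7 lists of other mTORC1 pathway genes; each point is a gene and each line the median of its list. SESN1, SESN2, MDM2 and TXNIP lie above 0.3, and the list medians lie between -0.025 and 0.041.

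The rest of the mTORC1 machinery was counted in 7 lists, with 94 genes measured. In limma over the 6 libraries 0 of 94 passed and 2, MDM2 and ATF4, had an unadjusted p under 0.05, against 2.06% of all genes. Voom with library quality weights called 1, MDM2, against 0.793% of all genes. These shares of the 94 lie near the background. Of the 94 genes, 2 passed in the authors' deposited table, MDM2 and ATF4, against 3.05% of all genes. In replicates 2 and 3, 7 of the 94 passed, against 6.36% of all genes in either direction, a share near that background. Of these, 6 were higher, against 2.89% of all genes, and 1 was lower, against 472 of all 13616 genes. The calls thus leaned towards higher, and that lean was not tested. Those higher included MDM2, TXNIP, EIF4B, RPTOR and DDB1, and the lower one was ATF4.

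Among the proteins that sense amino acids, GATOR2, KICSTOR and the sensors had 13 measured genes with a median difference of -0.0040. WDR59, a GATOR2 subunit, differed by 0.082 and the arginine sensor homologue CASTOR2 by 0.055 over the 6 libraries, and neither passed. The Rag, Ragulator and folliculin list had 12 measured genes and a median of 0.017. In it RRAGA, a Rag GTPase, differed by -0.088, RRAGC by 0.059 and SLC38A9, the lysosomal arginine sensor, by 0.081.

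The list of mTOR complexes and RHEB had 12 measured genes and a median of -0.0099. RPTOR, the subunit that defines mTORC1, had 87.3, 65.5 and 69.2 CPM in untreated replicates 1, 2 and 3 and 84.7, 76.8 and 81.6 CPM in pre-dose libraries. It rose by 0.23 in replicates 2 and 3 (limma adjusted p = 0.0162), and it differed by -0.043 in the replicate 1 pair. TTI1 and PRR5 differed by -0.11 each and did not pass. Of 14 measured substrates and outputs, with a median of -0.025, EIF4B, a translation initiation factor, rose by 0.16 in replicates 2 and 3 (limma adjusted p = 0.0140), and ATG13 and TFE3 differed by 0.083 and -0.060 over the 6 libraries without passing.

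The AMPK, PI3K and AKT list had 22 measured genes and a median of 0.0098. TXNIP, which restrains glucose uptake, had 66.7, 108 and 102 CPM in untreated replicates 1, 2 and 3 and 77.0, 158 and 136 CPM in pre-dose libraries. Its replicate 1 libraries were the lowest of each group, as for SESN1. TXNIP rose by 0.48 in replicates 2 and 3 (limma adjusted p = 0.00170). PRKAG1 and PRKAA2, AMPK subunits, differed by -0.068 and 0.11 over the 6 libraries and did not pass. Sestrins also act through AMPK, and DDIT4L, the paralog of DDIT4, stood at 1.15 ± 0.117 and 1.29 ± 0.124 CPM (SD, n = 3 each).

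Ubiquitin ligase parts reported to act on the brake proteins were counted because the series title concerns cullin 3. KLHL22, the cullin 3 adaptor that targets DEPDC5, had 44.2, 32.8 and 37.0 CPM in untreated replicates 1, 2 and 3 and 43.6, 37.3 and 43.5 CPM in pre-dose libraries. Its difference was 0.13 (95% interval -0.15 to 0.41), and the authors' deposited table gave 0.24 with an adjusted p of 0.102. CUL3 differed by 0.029 (95% interval -0.096 to 0.15). DDB1, the cullin 4 adaptor, rose by 0.13 in replicates 2 and 3 (limma adjusted p = 0.0393), and RBX1, the RING subunit shared by cullin ligases, differed by -0.063 over the 6 libraries without passing. Protein levels were not measured in these libraries.

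The genes whose log2(CPM + 1) followed a member most closely over the 6 libraries were picked by Pearson correlation, as a description. For SESN1 they were KCNJ2, SPEF2 and PCOLCE2, with r from 0.996 to 0.998. For SESN2 they were PSTPIP2, SELPLG and ZSWIM8, with r from 0.992 to 0.996, and PSTPIP2 had 4.53, 4.99 and 5.09 CPM in untreated replicates 1, 2 and 3 and 5.05, 8.21 and 7.34 CPM in pre-dose libraries. For SESN3 they included NAP1L5 and AASDH (0.990 and 0.985), and for DDIT4 CFAP44 and IMPDH1P8 (0.995 and 0.994). With 6 libraries such values are common. Of the 13615 other genes, 681 had an r above 0.9 with SESN1, 421 with SESN2, 393 with SESN3 and 1074 with DDIT4, and these libraries share the offset of replicate 1.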

How the data were processed

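The authors deposited 1 table of 13773 rows, in which 77 rows repeated a gene identifier and were dropped. Its expression values are on a log2 scale in CPM, deposited by the authors; read with a prior of 0.5, low values came out as multiples of 0.01 reads, of which 53.0 to 55.8% lay within 0.005 of a whole read, so they are estimated counts on a log2 scale. The authors also deposited log2 fold changes with limits, p-values and adjusted p-values, and their untreated-minus-pre-dose sign was inverted for this report. Per the submitters' processing notes, the tools included DRAGEN, bcl2fastq, limma and edgeR, and the build was hg38. No counter, strand setting or model of the authors is stated in the sources used here.

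Genes averaging 1 CPM or more were tested with limma-trend (R 4.3.3, limma 3.58.1) on log2(CPM + 1), two-sided, with Benjamini-Hochberg adjustment over all 13616 genes and a threshold of 0.05. That scale understates changes of low genes. In bulk RNA, a change per cell and a change in the share of cells cannot be told apart. Alternatives were a replicate block, other pseudocounts and filters, voom on the recovered estimated counts with a trimmed mean of M-values or with library quality weights, replicates 2 and 3 alone, and each library left out. The fits were tested on simulated data.

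Same-numbered libraries deviated from their group means together (correlation across genes 0.66, 0.45 and 0.18), so the numbers were taken to pair them. The labels do not state this pairing. Untreated replicate 3 with pre-dose replicate 2 reached 0.51, and untreated replicate 2 with pre-dose replicate 3 reached 0.28. Both exceed the 0.18 of the replicate 3 pair, so these correlations do not settle how replicates 2 and 3 pair.

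The members, the pathway lists and the alternatives were chosen with earlier results of these data known. Every member is named, as are CDKN1A, MDM2, ATF4, CUL3 and KLHL22, and from each pathway list the 3 genes with the smallest unadjusted p, given as not passing (a few genes that the rule gives are not reported here); DDIT4L was added after its values were seen. RRAGD and DEPTOR were not analysed here. Positions and lengths came from GENCODE release 29, and upstream sequences from RefSeq (GRCh38.p14), where all 9 members matched by symbol. Figures were drawn with matplotlib 3.10.9.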

Additional observations from a re-analysis of the deposited data

How the results depend on the processing

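Over the 6 libraries no count changed with the pseudocount, the filter, trimmed-mean scaling, the replicate block or any single library left out: each gave 0 of all genes, 0 of the 9 and 0 of the 94 other pathway genes (range 0 to 0). Library quality weights called 108 genes, 1 of the 9 and 1 of the 94, and replicates 2 and 3 alone called 866, 3 and 7. With the replicate block, SESN1 had a limma adjusted p of 0.138, the lowest value in that fit, which it shared with genes of smaller unadjusted p. SESN2 had 0.327, and the block changed no call. Leaving out single libraries gave SESN1 differences of 0.30 to 0.77 and SESN2 differences of 0.28 to 0.64, with the highest value of each without pre-dose replicate 1 (adjusted p = 0.395 and 0.270). TSC1 and TSC2 had the same direction under all 14 alternatives, at 0.066 to 0.11 and 0.066 to 0.14.

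Differences near 0 changed sign. Leaving out single libraries, SESN3 ran from -0.20 to 0.094, DEPDC5 from -0.016 to 0.095, NPRL2 from -0.030 to 0.044, NPRL3 from -0.085 to 0.14, DDIT4 from -0.18 to 0.28 and the ratio of SESN1 over SESN2 from -0.090 to 0.25. NPRL2 was -6.0e-04 with trimmed-mean scaling, -0.069 with quality weights and -0.046 in replicates 2 and 3, DDIT4 was -0.010 with quality weights, and the ratio of SESN1 over SESN2 was -0.052 in replicates 2 and 3; the cause was not tested. The alternatives for the ratios were chosen after seeing the data. SESN3, at under 3 CPM, has no value with a minimum mean of 5 CPM, and its relative counting error is the largest of the 9.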
